A study of Mus musculus with 6 samples.

Results

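Some anti-PanQk peaks of mouse myoblasts lay close together on the transcripts, and the densest of these runs are described here as blocks. A block was a chain of at least 5 anti-PanQk iCLIP peaks on 1 chromosome and strand in which no gap to the next peak exceeded 100 nt. Of 21752 anti-PanQk peaks on nuclear chromosomes, 3152 (14.5%, exact Clopper-Pearson 95% interval 14.0 to 15.0) lay in 236 such blocks. The members were chosen by the measured positions of the peaks, so the crowding itself is a description and no finding. The 236 blocks were 1.41% of 16771 chains, of which 15024 held a single peak, and their peaks held 58844 of 183581 listed reads (32.1%).

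The study made 6 iCLIP libraries, in 5 groups, from the immortalised mouse myoblast line C2C12, whose cells fuse into myotubes on differentiation. The groups were anti-PanQk myoblasts (1 library), anti-PanQk myotubes differentiated for 72 h (2 libraries), anti-Qk6 myoblasts (1 library), anti-Qk7 myoblasts (1 library) and anti-HA control myoblasts (1 library). All cells were crosslinked with 400 mJ of ultraviolet light, and the anti-HA antibody, raised against a viral peptide tag, gave the background. The anti-PanQk and anti-HA myoblast peak lists were used here, and the other 4 libraries were not analysed here, so stages and isoforms were not compared.

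Quaking (Qk) is an RNA-binding protein of the STAR family. Its isoforms share the RNA-binding domain and differ in their C-terminal tails, which set where in the cell they reside, and PanQk antibodies recognise the isoforms together. In muscle and glial cells Quaking is known for binding introns and 3′ untranslated regions and for acting in splicing, transcript stability and translation. In iCLIP, RNA fixed to a protein by ultraviolet light is recovered with an antibody and sequenced, and the peak caller CLIPper searches the read coverage of each gene for local rises, so that 1 covered stretch can be listed as several neighbouring peaks.

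Each antibody had 1 myoblast library, so no difference below has a replicate check and none was tested. The depth of the libraries is unknown, because the lists hold called peaks only. Over the nuclear chromosomes the anti-PanQk list held 183581 reads in 21752 peaks and the control list 144365 reads in 8051 peaks, a ratio of 1.27 in reads, and read numbers were not scaled between the lists. Both lists started at 3 reads per peak. Peaks of 1 block share a transcript and are not independent, and intervals cover counting error only. The lists give Ensembl gene IDs without symbols, so blocks are named by their position on the mouse build mm9, counted from 1, and the cell line's marker transcripts were not checked here. Transcript regions and sequences within blocks were not analysed here.

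Most blocks were small, and a few were very large. The median block held 7 peaks (quartiles 6 and 13, range 5 to 134). Blocks of 5 peaks numbered 54 and blocks of 6 peaks 52, while 45 held 7 to 9, 52 held 10 to 19, 23 held 20 to 49 and 10 held 50 or more. The peaks were concentrated in the large blocks. The 85 blocks of at least 10 peaks held 2229 of the members (70.7%), the 33 blocks of at least 20 held 1532 (48.6%), and the 10 blocks of at least 50 held 890 (28.2%). Blocks lay on 20 chromosomes, 123 of them on the plus strand. Chromosome 11 had 31 blocks with 665 peaks, and chromosome X had 8 blocks with 406 peaks, most of them in 3 very large blocks.

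**Figure D1:**
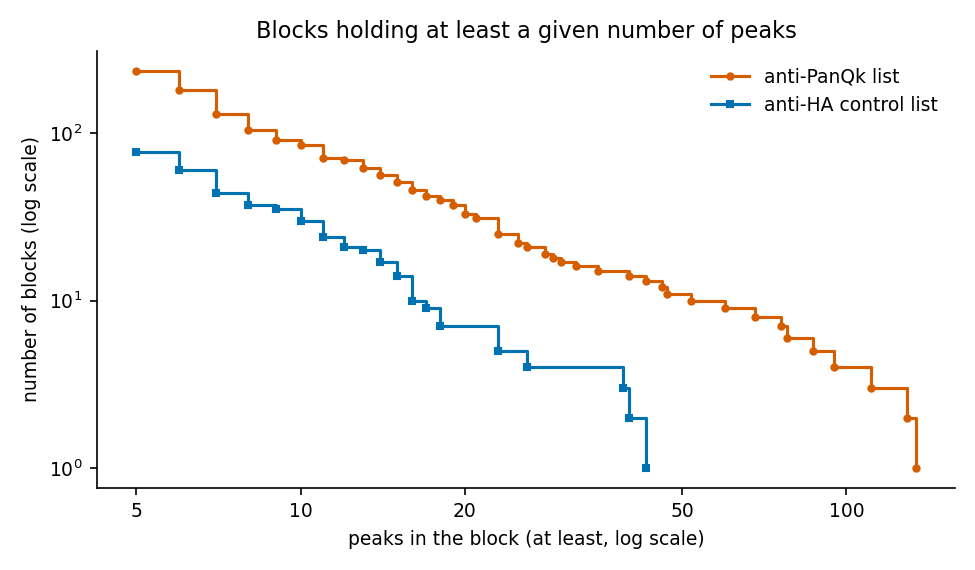
Number of blocks (vertical axis, log scale) that hold at least the number of peaks on the horizontal axis (log scale), for the anti-PanQk list in orange and the anti-HA control list in blue, 1 library each. The anti-PanQk curve starts at 236 blocks and reaches 134 peaks; the control curve starts at 77 blocks and reaches 43 peaks.

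Chains on either side of the limit overlapped in their values. The 54 chains of 5 peaks, just inside it, had a median of 66 reads (range 24 to 1061) and 363 nt, and the 123 chains of 4 peaks, just outside it, a median of 41 reads (range 12 to 1557) and 328 nt. A control peak lay in 37 of the 54 chains of 5 and in 60 of the 123 chains of 4. Between neighbouring peaks, 164 gaps measured 91 to 100 nt and were joined, and 138 gaps measured 101 to 110 nt and were not.

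Inside the blocks, neighbouring peaks mostly touched. Of the 2916 joins between members, 1616 (55.4%, 53.6 to 57.2) had no gap at all, 134 overlapped, 650 had a gap of 1 to 25 nt, 277 of 26 to 50 nt and 239 of 51 to 100 nt. Listed peaks therefore outnumbered separate covered stretches. Counted as unbroken stretches, the median block had 4 (range 1 to 63), and 111 blocks had at least 5. In 9 blocks the peaks, at least 5 of them, touched or overlapped into a single stretch. With touching peaks merged before chaining, 111 blocks with 1026 members remained, and with only peaks of p at most 1e-06 there were 105 blocks with 1130 members. Overlapping joins were found in 43 blocks, all of them among the 44 blocks whose peaks were listed under 2 or more gene IDs. The median block was 456.5 nt long (quartiles 267.75 and 671.5, range 37 to 2146), and its peaks covered 74.6% of that length.

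Reads were uneven within a block. The median block held 118 reads (quartiles 71.75 and 225.25, range 24 to 4124), and its strongest peak carried 29.3% of them (range 5.57 to 93.4). The strongest peak had no fixed place. It lay in the upstream, middle and downstream stretch, each of equal length, in 76, 82 and 78 blocks. In the 85 blocks of at least 10 peaks the counts were 23, 35 and 27, with the strongest peak carrying a median of 17.3% of the reads.

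The largest block lay on the plus strand of chromosome X from 54045026 to 54046493. Its 134 peaks held 4124 reads, the most of any block in both respects, and they formed 49 unbroken stretches over 1468 nt. The reads were concentrated in the middle stretch, which had 78.4% of them. The strongest peak, 54045765 to 54045781, had 633 reads and overlapped the strongest control peak of the block, which had 80 reads. In all, 25 control peaks with 544 reads lay inside the block and overlapped 91 of the 134 peaks.

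The next block in size was on the plus strand of chromosome X from 93361978 to 93363888, with 129 peaks, 1337 reads and 63 unbroken stretches. Here the reads lay toward the upstream end, with 59.3% in the upstream stretch, and 17 control peaks with 211 reads overlapped 83 members. On the minus strand of chromosome 11, the block from 55208026 to 55209074 held 111 peaks and 2831 reads, 63.5% of them in the downstream stretch. It contained 18 control peaks with 408 reads, which overlapped 83 members. In each of these 3 blocks the strongest peaks of both lists overlapped, while the part of the block that held most reads differed from one to the next.

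Another block on the minus strand of chromosome 11, from 115883621 to 115884817, held 95 peaks with 1194 reads, against 15 control peaks with 148 reads. A chromosome X block on the plus strand from 70740123 to 70741246 held 87 peaks with 801 reads, against 11 control peaks with 153 reads. No single peak dominated it: the strongest had 48 reads, 5.99% of the total. On the minus strand of chromosome 15, the block from 76001448 to 76002880 held 78 peaks with 911 reads, against 10 control peaks with 174 reads. Its reads gathered at both ends, with 40.5% in the upstream, 18.4% in the middle and 41.1% in the downstream stretch.

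The remaining 4 of the 10 blocks with the most peaks were all on minus strands. The chromosome 11 block from 120439777 to 120440472 packed 76 peaks and 1178 reads into 696 nt, against 7 control peaks with 113 reads. A smaller block of 16 peaks and 162 reads, from 120439463 to 120439673, lay just downstream under the same gene ID and held 1 control peak of 8 reads. Together they made this ID the fifth by member peaks, after the 4 IDs of the 4 largest blocks. The chromosome 11 block from 118162877 to 118164233 was sparser, with 68 peaks and 438 reads in 47 unbroken stretches that covered 33.0% of its length, against 5 control peaks with 65 reads. The blocks on chromosome 15 from 36700547 to 36702532 (60 peaks, 842 reads) and on chromosome 6 from 35458986 to 35460708 (52 peaks, 537 reads) were wide and well covered, at 79.4% and 76.7% of their length. They held 10 control peaks with 123 reads and 8 control peaks with 66 reads. Over the 10 blocks, the listed anti-PanQk reads were between 5.24 and 10.4 times the listed control reads, a direction that ranking by anti-PanQk peaks favours.

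**Figure D2:**
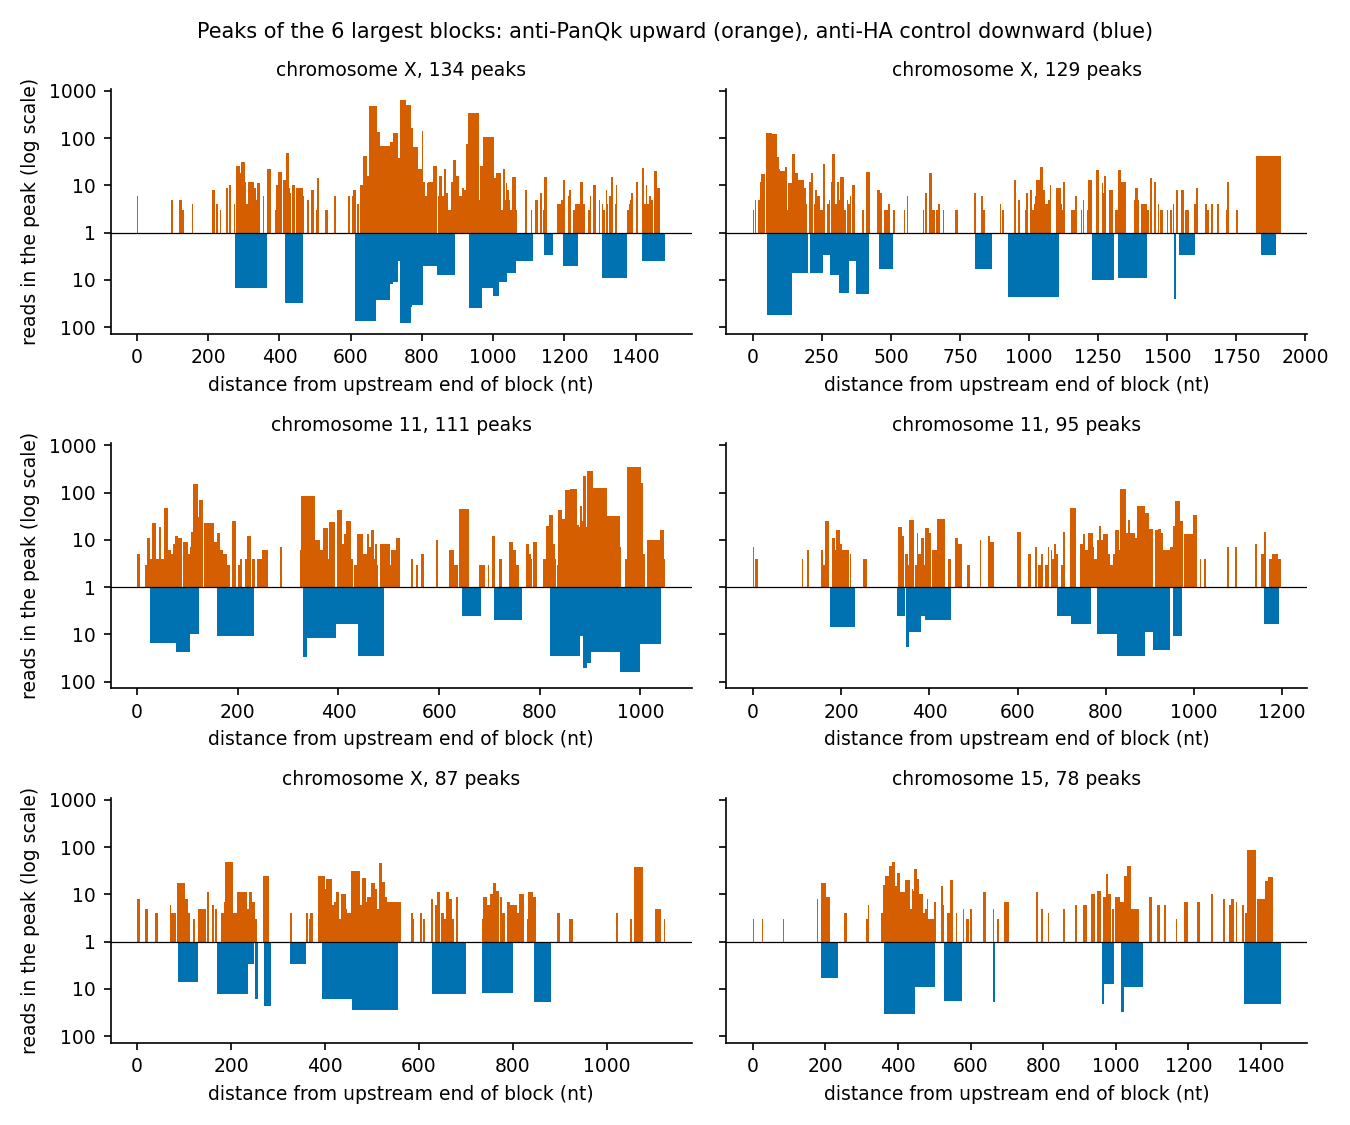
Peaks of the 6 blocks with the most peaks, drawn by distance from the upstream end of each block (nt, horizontal) and reads per peak (log scale, vertical), with anti-PanQk peaks upward in orange and anti-HA control peaks downward in blue. The anti-PanQk peaks are many and narrow, 134 to 78 per block, and the control peaks are fewer, 25 to 10 per block; several control peaks sit opposite the tallest anti-PanQk peaks.

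Member peaks were stronger and narrower than the other anti-PanQk peaks. Their median was 9 reads (quartiles 5 and 17), against 3 reads (3 and 5) for the 18600 other peaks. The median width was 18 nt (7 and 43) for members and 32 nt (10 and 45) for the others, and peaks of at most 4 nt made up 12.8% of members and 1.79% of the others. Peaks at the minimum of 3 reads were 10.5% of members and 50.0% of the others. The authors' deposited p-value was at most 1e-06 for 1641 members (52.1%, 50.3 to 53.8), against 2389 other peaks (12.8%, 12.4 to 13.3) and 18.5% of all nuclear anti-PanQk peaks. Of the 351 anti-PanQk peaks above 50 reads, 170 were members. A peak needs covered neighbours to be a member, so its reads are not independent of the rule.

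Control peaks lay over the blocks more often than over the rest of the list. A control peak overlapped 1533 of the 3152 members by at least 1 nt (48.6%, 46.9 to 50.4), against 1357 of 18600 other peaks (7.30%, 6.93 to 7.68) and 13.3% of all nuclear anti-PanQk peaks. The members' higher read numbers move with this difference, and overlap increased with reads inside and outside blocks. Within each class of read number the members were again overlapped more often. However, a control peak that crosses several neighbouring members was counted for each of them. In the minus-strand block on chromosome 5 from 77778286 to 77778507, 2 control peaks overlapped 23 of 26 members. The shares therefore count peaks and not separate sites, and the part of this in the difference was not tested. At 3 reads a control peak overlapped 28.9% of members and 1.70% of other peaks, at 4 to 5 reads 34.4% and 3.98%, and at 6 to 9 reads 40.1% and 12.3%. At 10 to 26 reads the shares were 53.7% of members and 27.4% of other peaks, at 27 to 50 reads 82.5% and 63.3%, and above 50 reads 88.8% and 70.7%. Members were narrower than other peaks in each class, with medians of 8 nt and 25 nt at 3 reads and of 15 nt and 16 nt above 50 reads. With touching peaks merged, 32.1% of members were overlapped, and with control peaks of 10 to 26 reads left out it was 30.6% of members and 4.09% of other peaks. The share of other peaks is not given with touching peaks merged, so members and others are not compared in that setting. Overlapped members had a median of 13 reads and members free of control peaks a median of 7.

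**Figure D3:**
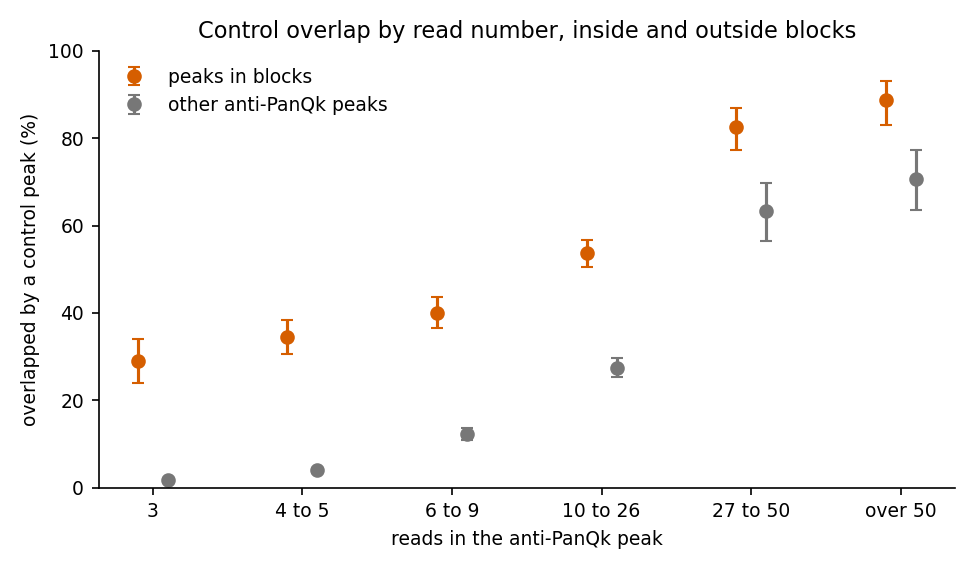
Percent of anti-PanQk peaks overlapped by an anti-HA control peak (vertical axis) by the number of reads in the anti-PanQk peak (horizontal axis), for peaks in blocks in orange and other anti-PanQk peaks in grey. Bars are exact Clopper-Pearson 95% intervals, and the shares for peaks in blocks lie above those for other peaks in all 6 read classes, from 28.9% against 1.70% at 3 reads to 88.8% against 70.7% above 50 reads. A control peak that crosses several peaks is counted for each of them.

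By block, 178 of 236 held at least 1 control peak (75.4%, 69.4 to 80.8) and 58 held none. Among blocks of at least 10 peaks 78 of 85 held one, against 100 of 151 smaller blocks. The larger blocks were also longer, with medians of 684 nt and 407 nt, and held more reads, with medians of 282 and 81. The part of length and reads in this difference was not tested. In 26 blocks every member was overlapped, and in 59 no member was. The blocks together contained 905 of the 8051 nuclear control peaks (11.2%) and 29282 of their 144365 reads (20.3%). The control peaks inside blocks varied more in strength than those elsewhere. By median they were slightly weaker, at 13 reads inside blocks and 15 reads elsewhere. The lower and upper quartile lay at 6 and 23 reads inside blocks and at 8 and 18 reads elsewhere. Above 50 reads were 10.5% of control peaks inside blocks and 1.57% of those elsewhere, while 10 to 26 reads were found in 40.3% of control peaks inside blocks and 67.2% of those elsewhere. Where a block held control peaks, the strongest peaks of both lists overlapped in 91 of 178 blocks.

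Listed reads in 153 of these 178 blocks were higher in the anti-PanQk list, a direction that the rule favours, because it picks places dense in anti-PanQk peaks. The ratio of anti-PanQk to control reads had a median of 5.27 (quartiles 1.64 and 10.3, range 0.106 to 59.8). Blocks built from the control list by the same rule gave the opposite direction. In the 75 of 77 control blocks with an anti-PanQk peak inside, the median ratio was 0.710 (range 0.0943 to 9.50), and 49 of the 75 had more control reads. The ratio also moves with how much was called in each list. In the 178 blocks, anti-PanQk peaks covered 65481 nt with 82.9 reads per 100 covered nt, and control peaks covered 23572 nt with 124 reads per 100 covered nt. In the 178 anti-PanQk blocks the ratio was at least 5 in 93 and at least 10 in 47. In 25 blocks the control list had more reads than the anti-PanQk list. These 25 were short, with a median of 138 nt, and held a median of 169 anti-PanQk reads and 640 control reads.

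**Figure D4:**
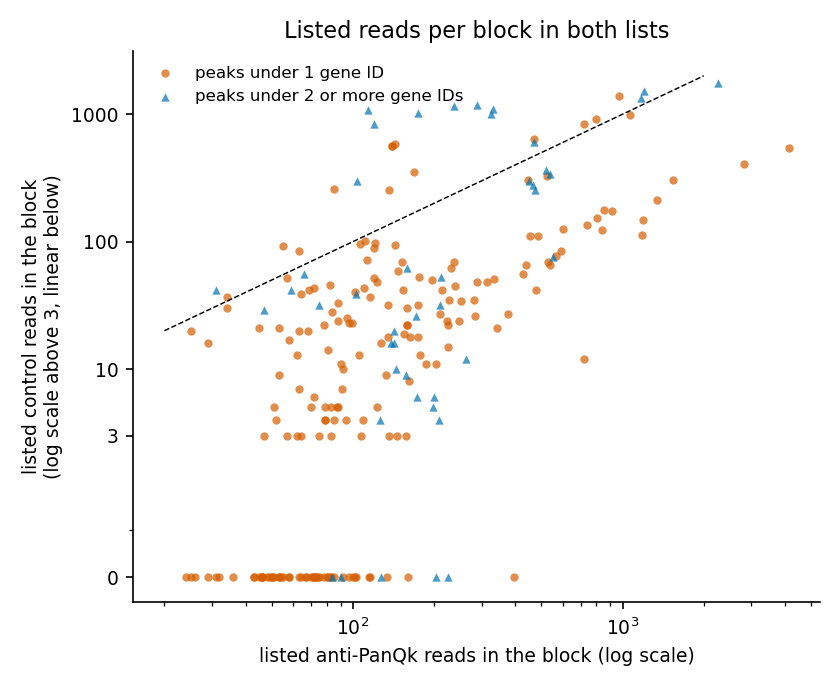
Listed control reads (vertical axis, log scale above 3 and linear below) against listed anti-PanQk reads (horizontal axis, log scale) for each of the 236 blocks, with blocks under 1 gene ID as orange circles and blocks under 2 or more gene IDs as blue triangles. The dashed line marks equal reads in both lists: 25 blocks lie above it, 153 blocks with a control peak lie below it, and the 58 blocks without one stand at 0.

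The 5 blocks with the most control peaks included the largest block of all, with 25. A minus-strand block on chromosome 16 from 57391239 to 57391762 had 26 anti-PanQk peaks with 970 reads, against 41 control peaks with 1400 reads, and 25 of its 26 members were overlapped. On the plus strand of chromosome 9, the block from 123370917 to 123371304 had 20 anti-PanQk peaks with 468 reads, against 40 control peaks with 640 reads. In both, the control list was the denser. A minus-strand block on chromosome 9 from 56071417 to 56071761 had 29 anti-PanQk peaks with 2251 reads, against 39 control peaks with 1768 reads. Its strongest anti-PanQk peak held 1257 reads, 55.8% of the block, and overlapped the strongest control peak of 393 reads. A plus-strand block on chromosome 5 from 147072580 to 147072901 had 12 anti-PanQk peaks with 468 reads, against 25 control peaks with 601 reads. This block and the chromosome 9 block with 2251 reads were each listed under 2 gene IDs and had overlapping peaks. Some of their peaks and reads may be counted more than once. All members of the last 3 blocks were overlapped by control peaks.

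The 5 blocks with the most reads were the 3 largest blocks by peaks, the chromosome 9 block with 2251 reads and a short plus-strand block on chromosome 10 from 24613784 to 24613882. The chromosome 10 block held 1544 reads in 10 peaks within 99 nt. A single peak of 5 nt, 24613784 to 24613788, held 1317 of these reads (85.3%) and overlapped the strongest of the 4 control peaks, which had 242 reads. It was thus a spike rather than a run of even peaks, and it lay under a gene ID whose peaks spanned 0.1 kb in all.

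The 58 blocks without a control peak were smaller. Their median was 6 peaks and 68.5 reads, against 8 peaks and 149.5 reads in the 178 blocks with one, and the strongest peak had a median of 19.5 reads in blocks without a control peak and 41 reads in blocks with one. Their length was similar, with medians of 490.5 nt and 451 nt. The fewer reads of these blocks move with the lack of control peaks, and their part in it was not tested. Under 37 of the 58 blocks' gene IDs a control peak was listed elsewhere. A control peak lay within 100 nt of 3 of these blocks and within 1000 nt of 17.

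One block without a control peak stood far above the rest in size. On the minus strand of chromosome 13 from 3900510 to 3902260, it held 47 peaks with 395 reads over 1751 nt, 86.1% of it covered. Its reads were spread evenly, with 31.6% in the upstream, 38.7% in the middle and 29.6% in the downstream stretch, and its strongest peak had 22 reads. It lay at the upstream end of its gene ID's peaks, at 4.36% of their span of 20.1 kb. That place rests on 4 entries of the ID outside the block, and the block itself held the upstream end. The next in size were a chromosome 5 block on the plus strand from 32793473 to 32794740 with 14 peaks and 160 reads, and a chromosome 11 block on the plus strand from 109530051 to 109530495 with 12 peaks and 134 reads. They were followed by a chromosome 1 block on the minus strand from 71632110 to 71632795 with 12 peaks and 100 reads, and by a chromosome 8 block on the minus strand from 19864512 to 19864966 with 10 peaks and 127 reads. In these 4 blocks the strongest peak had between 21 and 35 reads, and each lay in the last 10% of its ID's span, those on chromosomes 11, 1 and 8 at 96.4%, 99.5% and 99.9%. The chromosome 8 block was listed under 2 gene IDs. A block on the same strand from 19991806 to 19992257, of 7 peaks and 90 reads, likewise had no control peak and 2 gene IDs.

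Most blocks lay toward the downstream end of their gene ID's peaks. The peak span of an ID was taken from its first to its last peak in either list, which is not the annotated gene, and the place of a block is the position of its midpoint in that span, from 0% upstream to 100% downstream. Spans under 1000 nt were not used, which left 193 blocks with a place and 43 without. Of the 193 blocks, 133 lay in the last 10% of the span (68.9%, 61.9 to 75.4), 16 in the first 10% and 44 between, with a median place of 95.6%. The downstream end of the span itself lay inside 70 blocks. Since a block's own peaks help to set the span, its place is not independent of where its peaks lie.

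Counted by peak, 71.8% of members (1991 of 2773) lay in the last 10% of the span, against 43.1% of other anti-PanQk peaks and 36.7% of control peaks. Under the gene IDs that carry a block, the other anti-PanQk peaks were in the last 10% in 39.5% of cases and the control peaks in 41.6%. An anti-PanQk peak within 100 nt of a block on its strand is itself a member, so other peaks are missing there by the rule. The shares of other anti-PanQk peaks are therefore not independent of where the blocks lie. Of the 10 blocks with the most peaks, 7 lay in the last 10%, at 93.8% to 98.8%, and the other 3 lay at 72.0%, 80.5% and 89.0%. Those 3 belonged to IDs with short spans of 2.14, 3.39 and 5.12 kb, of which the blocks took 1197, 696 and 1124 nt. The median length was 528 nt for blocks in the last 10%, 478 nt for the 44 between and 166.5 nt for the 16 in the first 10%. Of those 16 blocks, 12 were listed under 2 or more gene IDs, and all blocks so listed had a median of 134 nt. A control peak lay in 97 of the 133 blocks in the last 10%, in 14 of the 16 in the first 10% and in 31 of the 44 between.

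**Figure D5:**
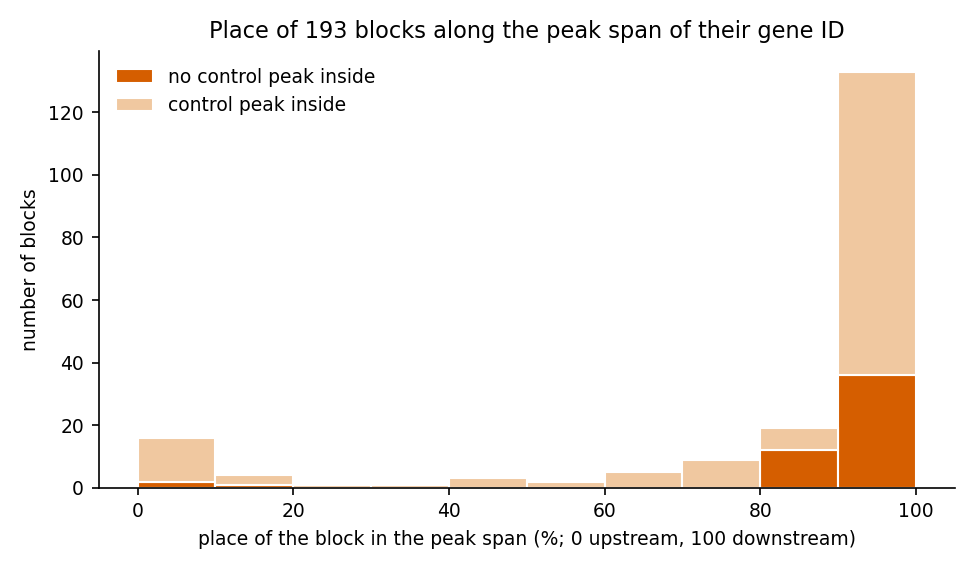
Number of blocks (vertical axis) by place in the peak span of their gene ID (horizontal axis, percent, in steps of 10, upstream to downstream) for the 193 blocks whose span is at least 1000 nt, with blocks without a control peak in dark orange and blocks with one in light orange, stacked. The last bar holds 133 blocks, 97 of them with a control peak inside, and the first bar holds 16.

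Blocks listed under 1 gene ID and under several differed in form. The 44 blocks with peaks under 2 or more IDs were short, with a median of 134 nt and 163 reads per 100 nt, against 504.5 nt and 20.5 reads per 100 nt for the 192 blocks under 1 ID. A control peak lay in 39 of the 44 (88.6%), against 139 of the 192 (72.4%). The ratio of anti-PanQk to control reads was 1.67 for the 39 blocks under several IDs and 5.89 for the 139 under 1 ID, as medians. Their places differed too. In the last 10% of the span lay 7 of 30 placed blocks under several IDs and 126 of 163 under 1 ID, while in the first 10% lay 12 of 30 and 4 of 163. The place of a block under several IDs depends on which ID was taken. Some of these places, as some under 1 ID, rest on 1 entry outside the block. Examples under several IDs are the chromosome 2 block from 141466225 to 141466316 (99.995%) and the chromosome 5 block from 72809958 to 72810059 (0.0456%). A read listed under overlapping entries may be counted more than once in blocks under several IDs. So may a peak, because overlapping intervals that were not identical were kept, and some of these blocks may reach 5 peaks in this way. An example is the chromosome 5 block just named, whose 5 peaks had 3 overlapping joins and formed 1 unbroken stretch. The sources used here do not say how reads with several genomic matches were treated.

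The 43 blocks without a place were also compact. Their median length was 98 nt with 186 reads per 100 nt, and a control peak lay in 36 of them. Among them were 3 near-equal blocks on the minus strand of chromosome 12, singled out after their values were seen, from 55820235 to 55820284, from 55835604 to 55835676 and from 55839532 to 55839580. They held 140, 143 and 140 anti-PanQk reads, against 564, 588 and 562 control reads. Their strongest control peaks had 447, 473 and 434 reads. The 3 blocks lay under different gene IDs, and their ratios of anti-PanQk to control reads were 0.248, 0.243 and 0.249.

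Most gene IDs with a block had exactly 1. The 236 blocks belonged to 212 IDs, 2.98% of the 7104 IDs with a nuclear anti-PanQk peak, and 18 IDs had 2 or more. The ID with the most had 6 blocks on the plus strand of chromosome 11, and it was described because of that count. They ran from 87236369 to 87285058 and each was also listed under another ID. The blocks measured 132 to 206 nt and held 7 to 21 peaks with 238 to 539 reads, against 13 to 17 control peaks with 256 to 1173 reads. The 6 blocks fell into a pair and a set of 4 by their control reads. The upstream pair held 238 and 288 anti-PanQk reads, against 1163 and 1173 control reads. The next 4 held 467, 475, 539 and 450 anti-PanQk reads, against 280, 256, 339 and 298 control reads.

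An ID with 4 blocks on the minus strand of chromosome 3, also chosen for its count, was of another kind. Its blocks lay between 144349881 and 144354494, at 83.2% to 99.3% of the span of 25.8 kb. From upstream to downstream they held 225, 32, 83 and 50 anti-PanQk reads, against 15, 0, 3 and 0 control reads. All 4 had few or no control reads, and the upstream block was the largest, with 17 peaks. Several of the IDs with a pair of blocks showed them end to end, separated by little more than the joining distance, such as the chromosome 6 blocks on the plus strand from 117875047 to 117875321 (25 peaks, 226 reads) and from 117875434 to 117875617 (14 peaks, 82 reads). These held 22 and 46 control reads.

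The same chaining on the control list gave 77 blocks with 794 of its 8051 peaks (9.86%, 9.22 to 10.5), against 14.5% of the anti-PanQk peaks. The control blocks were compact. The 236 anti-PanQk blocks had a median of 456.5 nt and 118 reads, and the 77 control blocks 139 nt and 272 reads, with 7 peaks as the median of both. Joins without a gap made up 55.4% in anti-PanQk blocks and 49.5% in control blocks. The anti-PanQk blocks that overlapped a control block numbered 48 (20.3% of 236), and the control blocks that overlapped an anti-PanQk block numbered 51 (66.2% of 77). The largest block held 134 peaks in the anti-PanQk list and 43 in the control list. The lists differ in length and depth was not matched, so the counts of blocks describe these lists only.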

How the data were processed

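Peaks were called by the authors with CLIPper on mm9, 1 library per list, per the file headers, whose tags rptfilt and premRNA are not defined there. The submitters' processing notes list Bowtie2, TopHat and mm9. Tool versions were not given in the sources used here. Each peak's position and p-value are the deposited ones, and the number that ends each deposited name was read as the peak's reads. Intervals repeated under another gene ID were counted once, which dropped 322 anti-PanQk and 210 control entries, and the mitochondrial chromosome was left out. Only identical intervals were dropped. Intervals that overlapped without being identical stayed as separate peaks, which left 134 overlapping joins between members.

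Peaks were chained, and overlaps (same strand, at least 1 nt) counted, with Python 3.11.15, pandas 2.3.3, numpy 2.4.6 and scipy 1.17.1, and plots drawn with matplotlib 3.10.9. The chaining was tested on simulated data. A control peak counts as inside a block if it overlaps it by 1 nt, with all its reads. A block under several gene IDs was placed under the ID with the most entries in it, and on a tie under the lowest ID. With 1 library analysed per antibody no test was made. Shares have exact Clopper-Pearson 95% intervals. The rule for named blocks takes the 10 with the most peaks, the 5 with the most reads, the 5 with the most control peaks, the 5 with the most peaks among those without a control peak, and the 5 gene IDs with the most member peaks.

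The members and lists were chosen with earlier results of these data known. The reference tables pair 0 of the gene IDs with a symbol, so the gene lists and the cell type markers were not used here. Alternatives changed the joining gap, the p-value limit, the lowest read number, abutting peaks, the list length, the gene IDs, the overlap, the control peaks and the smallest span.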

Additional observations from a re-analysis of the deposited data

Results flagged for a closer look

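The mitochondrial chromosome, which the comparisons above do not use, also held runs of neighbouring peaks, more of them in the anti-PanQk than in the control list. The same rule gave 27 blocks with 393 of 414 mitochondrial peaks in the anti-PanQk list, against 17 blocks with 187 of 235 peaks in the control list. The difference was not tested.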

How the results depend on the processing

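Of 53 alternative values, 31 were classed as close to the reported ones and 22 were not. A share was classed as close only inside the interval of the reported share, and counts were given more room. Against 236 blocks and 3152 members, counts classed as close included 337 and 4005 with a joining gap of 200 nt. They also included 209 and 2655 with 50 nt, and 181 and 2209 with equal list lengths. The 22 values not classed as close follow. With p at most 1e-06 there were 105 blocks with 1130 members, of which 55.5% were overlapped, and 82.9% of blocks held a control peak. With abutting peaks merged there were 111 blocks with 1026 members (stretches after merging), 32.1% overlapped, and 28 control blocks; by construction fewer peaks remain in both settings. The share of members overlapped was 54.4% and 41.2% with a joining gap of 50 and 200 nt, 56.5% with equal list lengths, 44.9% without the 5 gene IDs with the most members and 44.9% when the overlap had to reach 50% of the shorter peak. The share of blocks with a control peak was 68.8% with 200 nt and 81.2% with equal list lengths. Without control peaks of 10 to 26 reads, 30.6% of members were overlapped, 60.6% of blocks held a control peak and 43 control blocks remained, since fewer control peaks are left. Settings chosen after seeing the data left out blocks under 2 or more gene IDs, which gave 45.0% of members overlapped and 77.3% of placed blocks in the last 10%, or changed the overlap of the 18600 other peaks, to 6.61% with 50% of the shorter peak and 4.09% without control peaks of 10 to 26 reads. Members were overlapped more often than other peaks with 50% of the shorter peak and without control peaks of 10 to 26 reads. Neither of these settings changes which peaks are members. The other alternatives give no share for other peaks, so the comparison was not checked there. Where no construction is named the cause was not tested. No paired analysis was possible because the 2 groups analysed have 1 library each, and for the same reason no library could be left out. The depth of the libraries is unknown, so what it limits was not tested; the lowest listed number is 3 reads in both lists.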
